A study of Mus musculus with 6 samples.

Results

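Collagens are the main structural proteins of cartilage, and the mouse carries a large family of genes that each encode 1 chain of a collagen molecule. All rows whose symbol has the form Col, a number, the letter a and a number were taken as collagen chain genes, which gave 44 of the 55377 genes listed. The chains were followed in primary cultures of articular chondrocytes, the cells that build and maintain the cartilage of joint surfaces, taken from mouse articular cartilage. There were 6 RNA-seq libraries: 3 from cultures transfected with a control siRNA (siNC) and 3 from cultures transfected with an siRNA against Irf1 (siIRF1), the gene of the transcription factor interferon regulatory factor 1, with RNA extracted 36 h after transfection. The labels give neither the strain, age and sex of the mice nor the sequences of the siRNAs. They also leave it unstated whether replicates were independent cultures or animals, so each p-value reflects spread among these libraries that may be technical in origin.

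Each collagen molecule is a triple helix of chains, which can be copies of 1 gene's product or a mixture from several genes. Fibrillar collagens assemble into the banded fibrils that carry tension, and in cartilage these are fibrils of type II with type XI inside and type IX on the surface, whereas types I, III and V are typical of skin, bone, tendon and of chondrocytes that lose their phenotype in culture. FACITs are collagens with interrupted helices that sit on fibrils, network-forming collagens build sheets such as the basement membrane or the type X lattice of hypertrophic cartilage, and type VI collagen forms beaded microfilaments in the pericellular matrix around each chondrocyte. Transmembrane collagens span the cell surface. Heterotrimers need their chains in fixed proportions, so the proportions of transcripts are given below beside the level of each chain.

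Expression levels are in CPM, read counts relative to the library total after trimmed-mean scaling. The order of the chains, their class sums and their ratios used CPM or counts per kilobase of annotated exon. Bounds in CPM and sums over marker lists took no account of gene length. Total counts were 28565096 to 29282494 in the control libraries and 22349142 to 26752065 in the siIRF1 libraries, and the collagen chains took 10.5% to 13.01% and 10.1% to 12.6% of them. The target itself was lower: Irf1 received 312, 355 and 362 reads under control siRNA and 125, 140 and 141 reads under Irf1 siRNA, or 11.98 ± 0.76 and 5.58 ± 0.47 CPM (SD, n = 3), so 46.5% of the control level was left (log2 fold change −1.10, SE 0.11, edgeR adjusted p = 3.0e-06). The cells carried chondrocyte markers: the 10 listed genes summed to 15057 to 19015 CPM in the control libraries and 14986 to 18499.6 CPM in the siIRF1 libraries. Of these 10, 2 fell: Hapln1, which encodes the link protein of cartilage proteoglycan aggregates, from 1850, 1919 and 1864 CPM to 878, 984 and 883 CPM (log2 fold change −1.04, adjusted p = 1.60e-08), and Chad, which encodes the collagen-binding protein chondroadherin (−0.54, adjusted p = 0.0316). The list named synovial lining summed to 38.6 to 49.1 CPM in the control libraries against 55.6 to 65.1 CPM in the siIRF1 libraries. Both of its tested genes rose, Prg4 from 42.2 to 58.1 CPM (0.46, adjusted p = 0.00112) and Tspan15 from 0.830 to 1.45 CPM (0.81, adjusted p = 0.0393). Its other gene, Clic5, had 3 to 5 reads per library and was not tested. Whether chondrocytes or other cells expressed these genes was not tested. The macrophage list summed to 5.99 to 8.54 CPM against 8.88 to 10.02 CPM, nearly all of it Cd68, which rose (0.40, adjusted p = 0.0316), while Adgre1 was at 0 and Ptprc, Csf1r and C1qa were near 0. Endothelial markers summed to at most 1.38 CPM, and the skeletal muscle list to 9.31 to 9.50 CPM against 7.40 to 9.04 CPM. Nearly all of the muscle sum was Acta1, with means of 9.37 and 8.33 CPM, which did not pass (log2 fold change −0.17, edgeR adjusted p = 0.297). Myog was at 0, and Ckm and Myh3 were near 0. The part of these markers' cells in the collagen values was not tested, and in bulk RNA fewer cells of a type and less RNA per cell cannot be told apart.

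Of the 44 chains, 38 had enough counts to be tested, and 13 of these (34.2%) passed an adjusted p of 0.05 in edgeR's quasi-likelihood test, against 22.4% of the 14683 genes tested. The 9 chains that fell made up 23.7%, against 12.0% of all tested genes. The 4 that rose made up 10.5%, against 10.4%. The median log2 fold change was −0.08 over the 38 chains and 0.00 over all tested genes, and the median absolute log2 fold change was 0.11 over the chains and 0.16 over all tested genes. The control and siIRF1 values did not overlap for 12 of the 38 chains (31.6%), against 38.1% of all tested genes. Among the 18 tested chains that averaged 500 CPM or more, 7 fell (38.9%) and 0 rose, whereas of all 211 tested genes at that level 17.1% fell and 11.8% rose. Of the 20 less abundant tested chains, 2 fell (10%, Col4a1 and Col22a1) and 4 rose (20%). Among all 14472 tested genes under that level, 12.0% fell and 10.3% rose. A relation of direction to abundance was not tested.

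**Figure D1:**
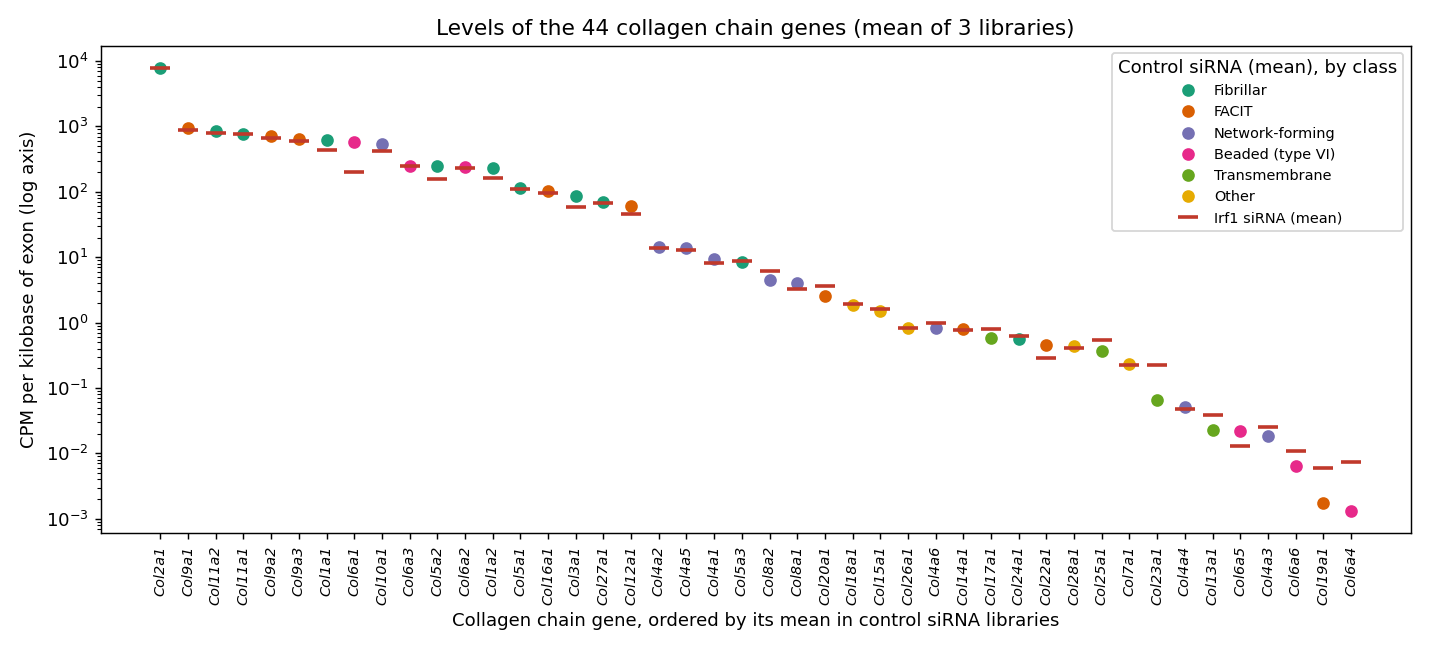
Mean level of each of the 44 collagen chain genes over the 3 libraries of a group, in CPM per kilobase of exon on a logarithmic axis, with genes ordered by their control mean; circles are control means coloured by class and red bars are Irf1 siRNA means. Col2a1 stands highest at 7811 CPM per kilobase, and among the abundant chains the red bar lies farthest below the circle for Col6a1, at 204 against 571.

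Levels per length spanned several orders of magnitude. Col2a1, whose product forms the homotrimer of type II collagen, had 7811 ± 1179 CPM per kilobase in the control libraries (SD, n = 3), 8.1 times the level of the next chain. Col9a1 followed at 963 ± 98.5, Col11a2 at 849 ± 127, Col11a1 at 754 ± 38.9, Col9a2 at 716 ± 116 and Col9a3 at 637 ± 78.5 CPM per kilobase. These 5 chains of the cartilage fibril lay within about the spread of their neighbours in the order. Col1a1 came next at 622 ± 71.3, then Col6a1 at 571 ± 36.5 and Col10a1 at 530.4 ± 67.4 CPM per kilobase. In the siIRF1 libraries Col6a1 stood at 204 ± 16.0 CPM per kilobase, below Col6a2 at 234 ± 26.0 and Col6a3 at 246 ± 11.7. For 9 chains, Col1a2, Col2a1 and Col11a1 among them, the union of exons is more than 1.5 times the longest transcript, so an order based on transcript length differs (Col1a2 rises from place 13 to place 9).

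Type VI collagen gave the largest fall of a single chain. Its main form is a heterotrimer of the products of Col6a1, Col6a2 and Col6a3, so that all 3 chains are needed for a molecule. Col6a1 had 2673, 2479 and 2356 CPM in the control libraries and 949.7, 814.0 and 910.6 CPM in the siIRF1 libraries. All siIRF1 values were far below all control values, and the mean fell 2.81-fold, to 35.6% of control (log2 fold change −1.49, SE 0.07, adjusted p = 1.56e-09). Among the 211 tested genes that averaged 500 CPM or more, no other fell further on the log2 scale, and by p-value Col6a1 ranked 7 among all tested genes. Its partner Col6a2 had 2149, 1991 and 1836 CPM in the control libraries and 2133, 1710.4 and 2004 CPM in the siIRF1 libraries, which overlap (log2 fold change −0.03, SE 0.08, adjusted p = 0.819). The longest chain gene of the type, Col6a3, had 3166, 2756 and 2956 CPM against 2838, 2886 and 3101 CPM, which overlap as well (log2 fold change −0.01, adjusted p = 0.941). The remaining type VI chains, Col6a4, Col6a5 and Col6a6, were near 0 in both groups, with summed counts of 1, 18 and 5 under control siRNA and of 5, 9 and 7 under Irf1 siRNA, and were not tested.

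As only Col6a1 fell, the proportions of the transcripts of the 3 chains differed between the groups. The proteins were not measured. The Col6a1 to Col6a2 ratio per exon length was 2.36, 2.37 and 2.44 in the control libraries against 0.846, 0.905 and 0.864 in the siIRF1 libraries. The siIRF1 ratio was thus 2.74-fold lower, a log2 difference of −1.46 with a pooled SD of 0.04 over the libraries. Col6a1 to Col6a3 went from 2.31, 2.46 and 2.18 to 0.914, 0.770 and 0.802, also without overlap. For Col6a3 to Col6a2 the ratio was 1.03, 0.963 and 1.12 in the control libraries against 0.926, 1.17 and 1.08 in the siIRF1 libraries, which overlap (log2 difference 0.03). With longest-transcript lengths the mean Col6a1 to Col6a2 ratio went from 1.51 to 0.549, so under both lengths Col6a1 was the higher of the pair in the control libraries and the lower in the siIRF1 libraries. In an exact two-sided permutation test, 3 libraries against 3 cannot go below p = 0.1; this was the p of both Col6a1 ratios (0.229 after Benjamini-Hochberg adjustment over the 16 ratios computed), and Col6a3 to Col6a2 gave p = 0.8 (adjusted 0.853).

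Short sequences in the 3′ UTR of Col6a1 belong beside these values. An earlier analysis of these same data picked 4 words of 7 bases, ACTGATC with its shifted form CTGATCA, and GCTATCT with CTATCTA, because they occur often in genes that fell, so their presence in a gene that fell is a description and no independent support. A search of the sense strand of the transcripts (GENCODE M21, GRCm38), in which the paired words may overlap, found them in the 3′ UTR of 19.2% of 12729 tested genes, 40.5% of those that fell, 11.4% of those that rose and 16.7% of those that did not pass. Of the 43 collagen chains with an annotated 3′ UTR, 5 held a word there: Col6a1, Col5a2 and Col12a1, which fell, Col20a1, which rose, and Col19a1, which was not tested. Among tested chains that was 4 of 37 (10.8%), namely 3 of the 9 that fell, 1 of the 4 that rose and 0 of the 24 that did not pass. The sites of the tested chains are shown 5′ to 3′ because Col6a1 and Col5a2 hold them and the 3′ UTRs of their partner chains do not, with the word in capitals.
Col6a1, base 186 of a 767-base 3′ UTR, chr10:76709355-76709384, minus strand: cacctgagctcCTATCTAgatcccgccctt
Col6a1, base 541, chr10:76709000-76709029, minus strand: aaagcaaaggtGCTATCTAtctgtaagggc
Col6a1, base 736, chr10:76708805-76708834, minus strand: gatccaagccaGCTATCTctgctaataaag
Col5a2, base 263 of 1763, chr1:45375803-45375832, minus strand: acaaaaagtaaACTGATCAaaaaataaata
Col12a1, base 1288 of 2178, chr9:79599863-79599892, minus strand: ccagcagcaccCTGATCAcatgcgttggcg
Col20a1, base 242 of 1049, chr2:181017545-181017574, plus strand: atgtgaggtgtCTGATCActgctgggagct
Col20a1, base 834, chr2:181018137-181018166, plus strand: agttgtacagcACTGATCctcaggaagctg

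Col6a1 held 3 sites, all of the second pair of words, and the other collagen chains shown held the first pair. No word was found in the 3′ UTR of Col6a2 or Col6a3, or of Col5a1. The other 6 chains that fell (Col1a1, Col1a2, Col3a1, Col4a1, Col10a1 and Col22a1) had no word in the 3′ UTR either, and of these only Col3a1 had one in its coding sequence. A word in the coding sequence alone was found in 12 chains, Col6a3 and Col11a1 among them.

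**Figure D2:**
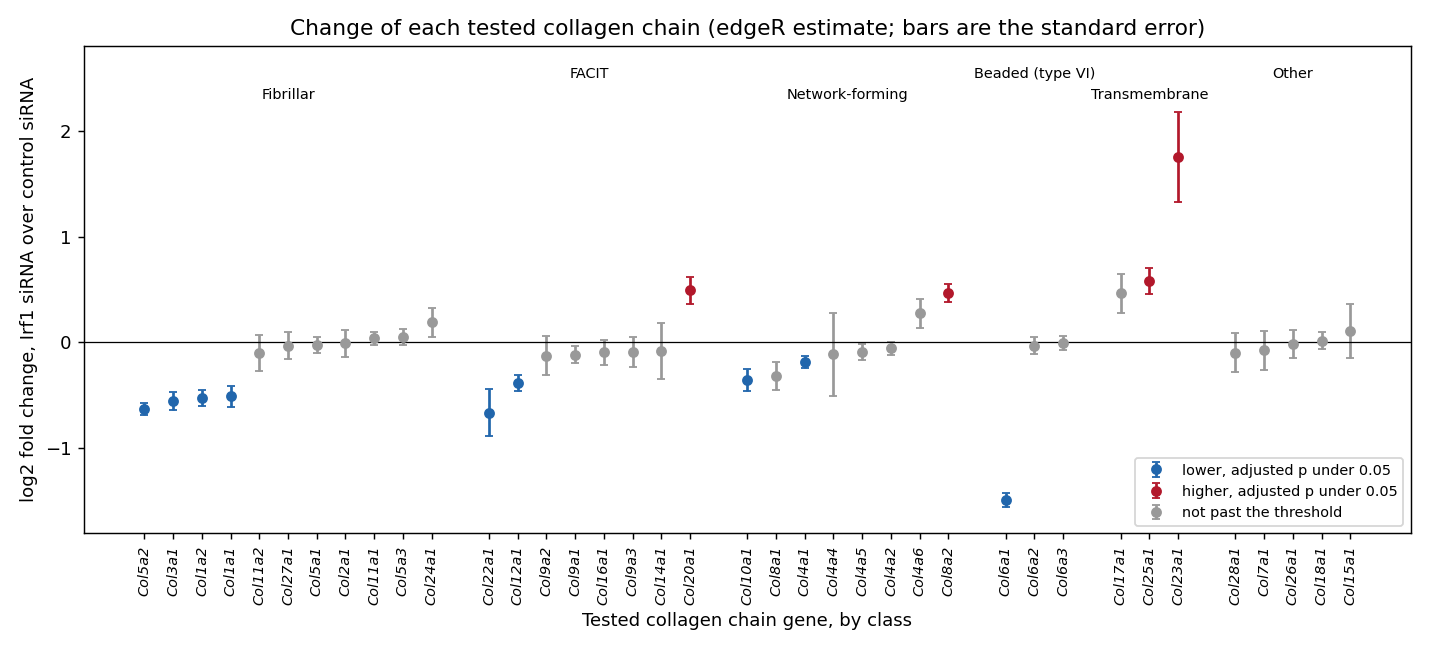
Log2 fold change of the 38 tested collagen chains, Irf1 siRNA over control siRNA, grouped by class; points are edgeR estimates, bars are the standard error and colour marks the chains past an adjusted p of 0.05. Col6a1 lies lowest at −1.49, apart from Col6a2 and Col6a3 near 0, and Col23a1 lies highest at 1.75 with the widest bar.

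Among the 11 fibrillar chains, all tested, 4 fell and 0 rose, against 12.0% and 10.4% of all tested genes. The median log2 fold change of the class was −0.03. The 4 that fell were both chains of type I, the only chain of type III and 1 chain of type V. Col1a1, which encodes the major chain of type I collagen, had 4539, 4106 and 3604 CPM in the control libraries and 3309, 2562 and 2725 CPM in the siIRF1 libraries (log2 fold change −0.51, SE 0.10, adjusted p = 0.00354). Col1a2, its partner in the type I heterotrimer, had 3137, 2936 and 2604 CPM against 2189.7, 1904 and 1933 CPM (−0.53, SE 0.08, adjusted p = 1.23e-04). In both genes every siIRF1 library lay below every control library. The 2 chains moved together, and their ratio per exon length was 2.67 in the control libraries and 2.69 in the siIRF1 libraries (exact permutation p = 0.8, adjusted 0.853). With longest-transcript lengths the mean ratio was 1.27 and 1.28, so its size depends on the length used. Col3a1, whose product forms the homotrimer of type III collagen that accompanies type I in many tissues, had 914.9, 860.3 and 787.1 CPM against 668.9, 543.5 and 533.9 CPM, again without overlap (−0.55, SE 0.08, adjusted p = 3.38e-04). Its ratio to Col1a1 overlapped between the groups (log2 difference −0.04, exact permutation p = 0.5, adjusted 0.800).

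Marker genes of other cells that make types I and III were measured beside these falls. The fibroblast list summed to 84.8 to 97.0 CPM in the control libraries and 89.3 to 96.0 CPM in the siIRF1 libraries. Of its 3 tested genes 0 passed, and most of the sum was Pdgfra, with means of 72.0 and 72.6 CPM. Thy1 was lower without overlap (log2 fold change −0.30, edgeR adjusted p = 0.0651), and Cd34 had a positive estimate (0.19, adjusted p = 0.227). Dpt, Pi16 and Tcf21 were near 0. The mural and smooth muscle list summed to 1437 to 1605 CPM against 1031 to 1148 CPM. Of its 5 tested genes 3 fell: Acta2 (log2 fold change −1.31), Cnn1 (−1.94) and Actg2 (−1.62), with the defining genes Myh11 and Rgs5 near 0. Cspg4, the largest part of this sum, had means of 798 and 797 CPM and did not pass. The osteoblast list summed to 82.4 to 108 CPM against 54.1 to 79.9 CPM, with 0 of 3 tested genes past the threshold. Most of this sum was Ibsp, with means of 74.2 and 45.3 CPM (log2 fold change −0.70, edgeR adjusted p = 0.182). Bglap, with means of 0.199 and 0.439 CPM, had a positive estimate (1.13, adjusted p = 0.0880), and Sp7 was at −0.01. The part of these cells or programs in the falls of Col1a1, Col1a2 and Col3a1 was not tested.

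Type V collagen, which forms the core on which type I fibrils start, was split like type VI. Col5a2 had 2237, 2418 and 2398 CPM in the control libraries and 1494.7, 1495.0 and 1566 CPM in the siIRF1 libraries, a 1.55-fold fall with tight replicates in both groups (log2 fold change −0.63, SE 0.06, adjusted p = 1.54e-06). Col5a1, which supplies the other chain of the common heterotrimer, had 1051, 988 and 878 CPM against 1045, 865 and 953 CPM, which overlap (−0.03, adjusted p = 0.838). Col5a3, the chain of a rarer form, was low in both groups at 57.6 ± 3.37 and 59.6 ± 5.82 CPM (0.05, adjusted p = 0.679). The Col5a1 to Col5a2 ratio per exon length went from 0.531, 0.462 and 0.414 to 0.789, 0.653 and 0.688, without overlap (log2 difference 0.60, exact permutation p = 0.1, adjusted 0.229). Col3a1 and Col5a2 lie next to each other on chromosome 1 with no protein-coding gene between them, and both fell. Col6a2 and Col6a1 are likewise direct neighbours, on chromosome 10, where 1 of the 2 passed.

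The chains of the cartilage fibril gave small estimates. Col2a1 had 81457, 74941 and 60185 CPM in the control libraries and 82178, 60369.9 and 72578 CPM in the siIRF1 libraries, with wide spread inside both groups and full overlap (log2 fold change −0.01, SE 0.13, adjusted p = 0.968). Col11a1, a chain of type XI collagen that controls fibril width, had 10130.5, 9536 and 9147 CPM against 10109.9, 9344 and 10123 CPM (0.04, adjusted p = 0.726). Col11a2, its partner, had 6668, 5918 and 4926 CPM against 6511, 4303 and 5535 CPM (−0.10, adjusted p = 0.733). The SE of Col2a1 allows for a change of modest size in either direction, so these values do not show equal expression. The ratio of Col11a1 to Col11a2 overlapped between the groups (log2 difference 0.15, exact permutation p = 0.5, adjusted 0.800), and so did that of Col11a1 to Col2a1 (0.05, p = 0.8, adjusted 0.853), whose product also supplies the remaining chain of type XI.

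Type IX collagen, the FACIT that decorates the type II fibril, has 3 chains from Col9a1, Col9a2 and Col9a3. Col9a1 had 5262, 5060.2 and 4314 CPM in the control libraries and 4905, 4084 and 4516 CPM in the siIRF1 libraries (log2 fold change −0.12, adjusted p = 0.342). Col9a2 had 2498, 2338 and 1812 CPM against 2428, 1606 and 2065 CPM (−0.12, adjusted p = 0.692), and Col9a3 had 2721, 2515 and 2125 CPM against 2712, 1882 and 2322 CPM (−0.09, adjusted p = 0.700). All 3 overlapped between the groups and kept close ratios to each other, with log2 differences of 0.02 for Col9a1 to Col9a2 (exact permutation p = 0.9, adjusted 0.900) and 0.03 for Col9a3 to Col9a2 (p = 0.6, adjusted 0.853). The ratio of Col2a1 to Col1a1, which is often used to follow the chondrocyte phenotype in culture, was 12.7, 12.96 and 11.9 in the control libraries against 17.6, 16.7 and 18.9 in the siIRF1 libraries per exon length. It did not overlap (log2 difference 0.50, exact permutation p = 0.1, adjusted 0.229), and of its 2 genes Col1a1 was the one that passed the test.

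**Figure D3:**
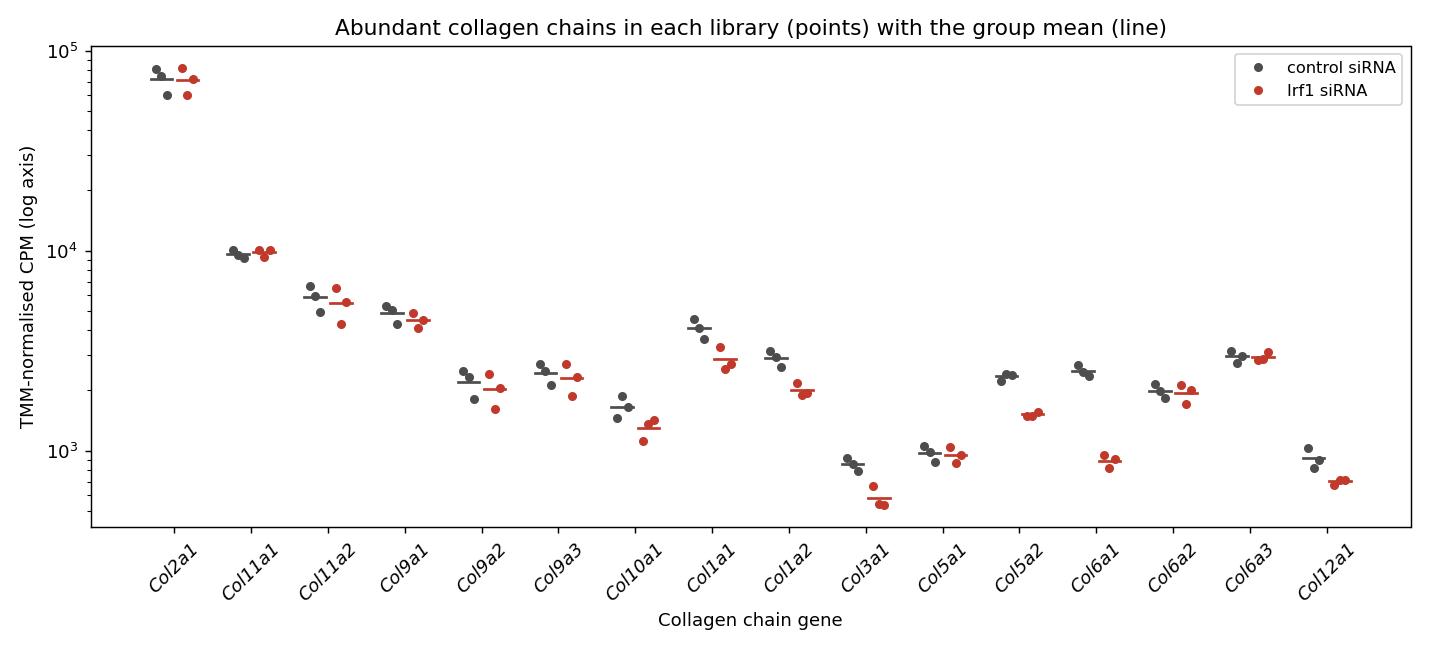
CPM of 16 abundant collagen chains on a logarithmic axis; each point is 1 library, each line a group mean, and the colours are the siRNAs. The Irf1 siRNA points of Col1a1, Col1a2, Col3a1, Col5a2, Col6a1, Col10a1 and Col12a1 lie below all their control points, and those of the other 9 chains overlap with them.

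The abundant chains also varied together inside each group. Of the 18 chains with at least 100 CPM, control replicate 1 was the highest control library for 16 and control replicate 3 the lowest for 14, while siIRF1 replicate 1 was the highest siIRF1 library for 13 and siIRF1 replicate 2 the lowest for 13. Col2a1 shows the size of this spread: it took 7.95%, 7.40% and 6.09% of the counts in the control libraries, beside 8.15%, 6.21% and 7.27% in the siIRF1 libraries. Col5a2 and Col10a1 did not follow that order in either group.

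Of the 9 network-forming chains, 8 were tested, 2 fell and 1 rose, against 12.0% and 10.4% of all tested genes. Col10a1, the chain of type X collagen and a marker of hypertrophic chondrocytes, had 1452, 1874 and 1654 CPM in the control libraries and 1117, 1362 and 1417 CPM in the siIRF1 libraries, without overlap (log2 fold change −0.35, SE 0.10, adjusted p = 0.0308). Leaving out control replicate 2 or 3, or siIRF1 replicate 1 or 2, ended this call, with adjusted p of 0.0914, 0.102, 0.0545 and 0.0719. Among the basement membrane chains of type IV, Col4a1 had 69.5, 68.9 and 68.5 CPM against 60.0, 58.9 and 63.1 CPM, a small and tightly measured fall (−0.18, SE 0.06, adjusted p = 0.0264). Leaving out 1 of 4 libraries ended it as well, with adjusted p of 0.0796 and 0.0741 without control replicates 1 and 2 and of 0.0585 and 0.0658 without siIRF1 replicates 1 and 2, and upper-quartile scaling gave 0.0503. Its partner Col4a2, which lies head to head with it and overlaps it on the opposite strand, had 94.4 ± 2.73 and 91.0 ± 5.82 CPM (−0.05, adjusted p = 0.563). The strand setting of the counting is not given in the sources used here, so reads of the overlap could have been shared between Col4a1 and Col4a2.

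Type VIII collagen, a short-chain network of vessels and the eye that is also made by mesenchymal cells, had chains with opposite signs. Col8a2 rose, from 19.7, 22.1 and 18.9 CPM to 30.1, 25.9 and 27.9 CPM (log2 fold change 0.47, SE 0.08, adjusted p = 8.0e-04), whereas Col8a1 had 37.7, 24.8 and 31.8 CPM against 27.4, 25.5 and 22.7 CPM and did not pass (−0.32, adjusted p = 0.129). The Col8a1 to Col8a2 ratio per exon length was 1.10, 0.644 and 0.963 in the control libraries against 0.523, 0.563 and 0.467 in the siIRF1 libraries (log2 difference −0.77, exact permutation p = 0.1, adjusted 0.229). The remaining type IV chains were Col4a5 at 92.1 ± 4.78 CPM in the control libraries, its partner Col4a6 at 6.50 ± 0.53 CPM and Col4a4 at 0.546 ± 0.091 CPM, and none of these passed. Col4a3, with summed counts of 16 and 18, was not tested.

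Among the 9 FACIT chains, 8 were tested, 2 fell and 1 rose, against 12.0% and 10.4% of all tested genes. Col12a1, which binds type I fibrils in tendon and ligament, had 1031, 816 and 896 CPM in the control libraries and 671, 715 and 717 CPM in the siIRF1 libraries (log2 fold change −0.38, SE 0.07, adjusted p = 0.00163). Its siIRF1 values lay together below all control values. Col22a1, a collagen of tissue junctions, had 5.56, 3.97 and 2.90 CPM against 3.16, 2.29 and 2.43 CPM (−0.66, SE 0.22, adjusted p = 0.0450). Its groups overlapped, and the call was lost without control replicate 1 (adjusted p = 0.209) or 2 (0.0904), or siIRF1 replicate 2 (0.149) or 3 (0.144), or with upper-quartile scaling (0.0522). Col20a1 rose, from 16.2, 13.1 and 10.6 CPM to 20.0, 16.9 and 19.2 CPM (0.49, SE 0.13, adjusted p = 0.0151), without overlap. That call was lost without control replicate 2 (adjusted p = 0.0589), siIRF1 replicate 1 (0.0588) or siIRF1 replicate 3 (0.0693). An annotated transcript unit, BX649560.1, overlaps Col20a1 on the same strand with up to 352 counts in a library against up to 464 for Col20a1, so the value of Col20a1 is uncertain. Col16a1, at 692 ± 84.5 and 649.6 ± 97.5 CPM, and Col14a1, at 5.64 ± 2.17 and 5.35 ± 0.97 CPM, did not pass, and Col19a1 had 1 and 3 counts and was not tested.

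Transmembrane chains were scarce, and 2 of the 3 tested rose, against 10.4% of all tested genes. Col25a1, known from neurons and muscle, had 5.07, 4.61 and 4.66 CPM in the control libraries and 6.37, 7.95 and 7.05 CPM in the siIRF1 libraries, without overlap (log2 fold change 0.58, SE 0.12, adjusted p = 0.00344). Col23a1 received 14, 6 and 12 reads under control siRNA and 45, 32 and 15 under Irf1 siRNA, so its log2 fold change of 1.75 (SE 0.42, adjusted p = 0.00800) rests on few reads and on a wide spread among the siIRF1 libraries. Col17a1, the hemidesmosome chain of epithelia, had 3.51 ± 0.74 and 4.86 ± 1.12 CPM (0.46, adjusted p = 0.0898). Col13a1, with 9 and 13 counts, was not tested. The other 5 chains, Col7a1 of anchoring fibrils, the multiplexins Col15a1 and Col18a1, Col26a1 and Col28a1, did not pass and stayed at 13.3 CPM or less in both group means. The fibrillar chains Col24a1 and Col27a1 did not pass either, at 4.20 ± 0.14 and 906 ± 130.1 CPM in the control libraries.

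Summed over a class, type VI had the lowest siIRF1 level relative to control. Its chains summed to 1133, 1036 and 1006 CPM per kilobase in the control libraries and 710.3, 632.5 and 707.8 CPM per kilobase in the siIRF1 libraries, a 1.55-fold lower mean without overlap. That took type VI from 7.13% to 4.995% of all collagen signal per kilobase. The fibrillar sum, most of it Col2a1, was 10794 ± 1454 and 10330 ± 1468 CPM per kilobase, which differ by less than the spread between replicates. The FACIT sum was 2482 ± 309 and 2290.4 ± 335 CPM per kilobase, also within that spread. The network-forming sum, most of it Col10a1, was 577 ± 67.0 and 460.1 ± 51.7, without overlap between the groups. The transmembrane sum was 1.04 ± 0.15 and 1.62 ± 0.22 CPM per kilobase, a small amount beside the other classes, and did not overlap either. These sums carry no test.

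**Figure D4:**
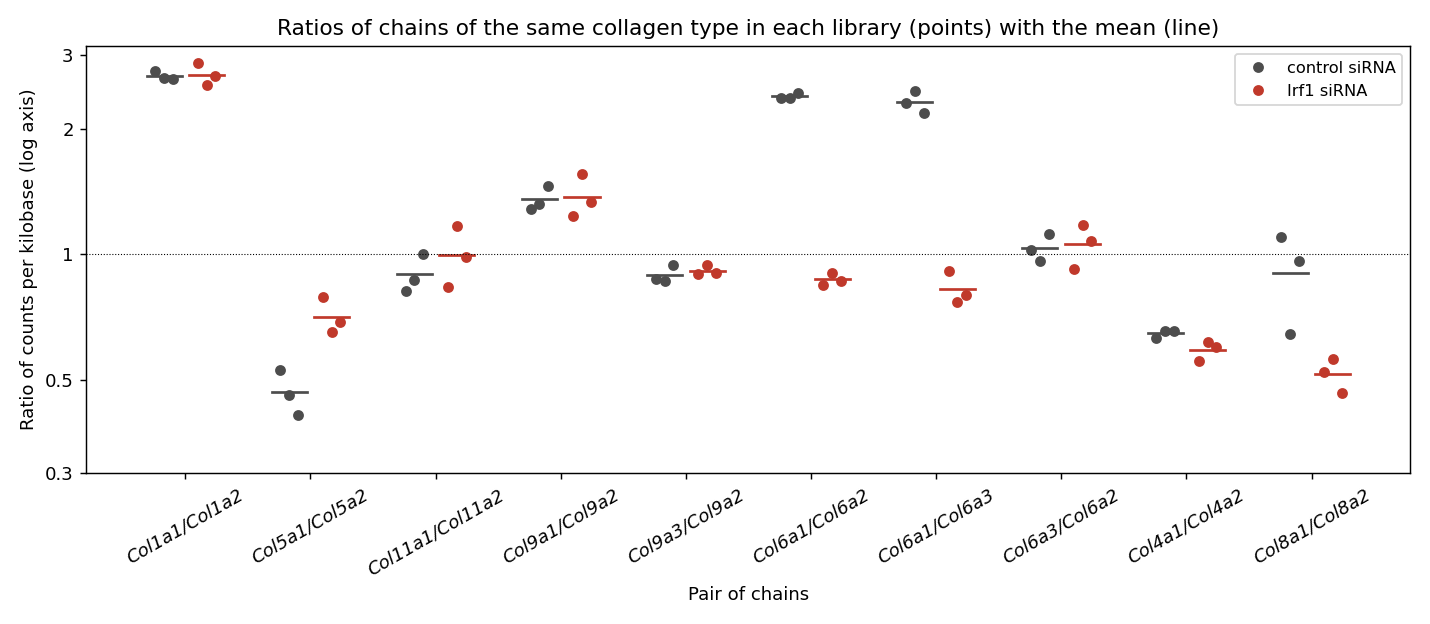
Ratio of the levels per kilobase of 10 pairs of chains on a logarithmic axis; each point is 1 library, each line a group mean, and the dotted line marks equal levels. The ratios of Col6a1 to Col6a2 and to Col6a3 lie above 2 in the control libraries and under 1 in the Irf1 siRNA libraries. The ratio of Col1a1 to Col1a2 overlaps. Levels are per kilobase of the union of exons, and with longest-transcript lengths some pairs change side of the dotted line. The control mean of Col11a1 to Col11a2 goes from 0.897 to 1.31, and that of Col6a3 to Col6a2 from 1.04 to 0.724.

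Across the 16 chain ratios, 7 did not overlap between the groups and all 7 gave the smallest p of 0.1. Besides those already given they were Col4a1 to Col4a2 (log2 difference −0.13) and Col4a5 to Col4a6 (−0.35), the latter from 15.1, 19.0 and 16.7 in the control libraries to 14.2, 13.8 and 11.7 in the siIRF1 libraries per exon length. Col5a3 to Col5a1 (0.07, exact permutation p = 0.5, adjusted 0.800) and the sparse Col4a3 to Col4a4 (0.68, p = 0.8, adjusted 0.853) overlapped. By size, both Col6a1 ratios stood apart from the others, followed by Col8a1 to Col8a2 at −0.77.

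Promoter windows (250 bases before to 50 after the start, RefSeq, GRCm38.p6) were found for 35 of the 44 chains. IRF family factors bind repeats of GAAA, and the letters GAAANNGAAA, searched on both strands, occurred in 0 of the 35 windows, against 3.99% of the windows of 27025 genes. CCAAT, the box bound by NF-Y, occurred in 37.1% of the collagen windows and 41.1% of all, and TATAAA in 14.3% and 15.7%. Windows of Col1a1, Col2a1, Col4a3, Col5a2, Col9a3, Col12a1, Col14a1, Col22a1 and Col26a1 were not analysed here. The absence of these letters says only that they are not in these windows.

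Collagen chains pass through a series of folding enzymes, are exported, trimmed and cross-linked, and then meet receptors and fibril partners. Of the 67 tested genes in 6 lists of such functions, 13 fell and 5 rose; the 26.9% that changed compare with 22.4% of all tested genes, the 19.4% that fell with 12.0% and the 7.46% that rose with 10.4%. Of the 24 genes of folding, modification and export, 4 fell and 1 rose, and the 20.8% that changed is near the share of all tested genes (median log2 fold change −0.05). Ppib, which encodes cyclophilin B, a prolyl isomerase of the collagen 3-hydroxylation complex, had 491.4, 513.5 and 490.6 CPM in the control libraries and 190.2, 181.5 and 181.8 CPM in the siIRF1 libraries, a 2.70-fold fall (adjusted p = 1.65e-10). Fkbp10, which encodes the procollagen chaperone FKBP65, had 772.8, 789.2 and 695.0 CPM against 412.2, 346.6 and 370.7 CPM (log2 fold change −0.999, adjusted p = 9.86e-08). In both genes the groups were far apart. Ppib and Fkbp10 hold a word of the kind given above in their 3′ UTR. Fkbp14, Sec23a and Colgalt1 of the same list also hold one and did not pass, and Fkbp7 and P4ha3 fell without one. Over the 6 lists 12 tested genes hold a word, of which 4 fell (33.3%), 0 rose and 8 did not pass. Of all 2450 tested genes with a word, 686 fell, 159 rose and 1605 did not pass. The part of the words in these falls was not tested. Fkbp7, another isomerase of the endoplasmic reticulum, fell (−0.70, adjusted p = 1.10e-04), and Plod2, the lysyl hydroxylase of the telopeptides, rose (0.24, adjusted p = 0.00517).

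Of the 13 tested genes of extracellular processing and cross-linking, 4 fell and 1 rose (38.5% changed, against 22.4% of all tested genes). The share that changed was 25.0% of the 8 tested receptors, 30% of the 10 partners on the fibril, 33.3% of the 6 tested genes of degradation and 16.7% of the 6 regulators, each of them 1 to 3 genes. The lysyl oxidase family members Loxl2 (log2 fold change −0.28, adjusted p = 0.00233), Loxl3 (−0.31, adjusted p = 0.00233) and Lox (−0.24, adjusted p = 0.0351), which start cross-links, fell, as did Loxl4 (−0.18, adjusted p = 0.0440), and the procollagen N-proteinase Adamts14 rose (0.38, adjusted p = 0.00370). Of the 8 tested receptors, Itga11, the integrin chain for type I collagen, fell from 20.5 ± 0.93 to 13.2 ± 0.50 CPM (−0.64, adjusted p = 3.29e-05), and Itga10, the integrin chain for type II collagen typical of chondrocytes, rose (0.33, adjusted p = 0.00486). Of 10 partners on the fibril, 3 fell and 0 rose. Bgn, which encodes biglycan, a small proteoglycan that binds types I and VI collagen, went from 1885, 1839 and 1607 CPM to 1342, 1087 and 1179 CPM (−0.56, adjusted p = 1.29e-04), and Prelp (−0.24, adjusted p = 0.0141) and Fmod (−0.27, adjusted p = 0.0343) fell by less. Of the 6 tested genes of degradation, Mmp3, which encodes stromelysin, rose (0.61, adjusted p = 0.00366) and Mmp2 fell (−0.23, adjusted p = 0.0186). Of the 6 regulators of cartilage collagens, Sox6, a partner of Sox9 at the Col2a1 enhancer, was the 1 that passed (0.20, adjusted p = 0.0301). The smallest of these changes depended on single libraries: the call was lost for Prelp without control replicate 1 (adjusted p = 0.0732), for Mmp2 without control replicate 1 (0.0791), control replicate 2 (0.0965) or siIRF1 replicate 3 (0.0620), for Sox6 without any one library but siIRF1 replicate 1 (0.0599 to 0.174), for Fmod without any one but control replicate 3 and siIRF1 replicate 1 (0.0977 to 0.120), and for Lox without any one but control replicate 1 and siIRF1 replicate 2 (0.103 to 0.138). Loxl4 lost its call without any one library but control replicate 3 and siIRF1 replicate 3. With upper-quartile scaling, which lost Fmod, Lox and Loxl4 and added Mia2 and Mrc2, 10 genes of the 6 lists fell and 7 rose, against 13 and 5.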

How the data were processed

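Each library has 1 deposited table of whole-number read counts per gene, as the authors made it and not normalised. Trimmomatic 0.39, FastQC and STAR, with GRCm39 (mm39), are named in the submitters' processing notes, and stranded preparation of polyadenylated RNA in the labels' protocols. The counting tool, annotation and strand setting were not given in the sources used here. Genes were filtered with filterByExpr, scaled by TMM and tested with edgeR 4.0.16 in R 4.3.3 (quasi-likelihood, robust, two-sided, Benjamini-Hochberg over 14683 genes, threshold 0.05). The filter kept at least 99.9% of counts. The common biological coefficient of variation was 6.44%, and precision is limited by 3 libraries per group. DESeq2 1.42.0, other scalings, no filter, a replicate block and leaving out each library were alternatives. The code was tested on simulated counts.

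The collagen members, gene lists and words were chosen with earlier results of these data known. Full values are given for chains that passed and for types I, II, III, V, VI, IX, X and XI. They are also given for up to 4 changed genes of each list. Loxl4, P4ha3, Fkbp14, Sec23a, Colgalt1, Mia2, Mrc2, Hapln1, Chad, Cd68, Prg4 and Tspan15 were named after their values were seen. So were Clic5, Pdgfra, Thy1, Cd34, Cspg4, Ibsp, Bglap, Sp7 and Acta1. Lengths, 3′ UTRs and overlaps came from GENCODE M21 (GRCm38) by gene identifier, with no conversion of coordinates. Lengths were the union of exons.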

Additional observations from a re-analysis of the deposited data

How the results depend on the processing

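Col6a1, Col5a2, Col1a1, Col1a2, Col3a1, Col12a1, Col8a2, Col25a1 and Col23a1 passed in edgeR or DESeq2 under each alternative run, in the same direction. The chains that fell and rose numbered 9 and 4 with DESeq2, with RLE scaling and with scaling that left out collagen genes, 7 and 4 with upper-quartile scaling (Col4a1 and Col22a1 lost), and 10 and 5 with no filter, which added Col8a1 and Col17a1. Leaving out 1 library gave 6 to 8 that fell and 3 to 5 that rose. Over all genes 1522 rose, and 959 to 1398 did with 1 library left out, with 980 without control replicate 2 and 959 without siIRF1 replicate 3. The pathway lists had 5 genes that rose, and 8 with no filter. The log2 difference of the type VI sum was −0.63, and −0.53 with longest-transcript lengths. No result that passed its test changed sign under any alternative run. Among chains, signs were compared only for those that passed and for tested chains of types I, II, III, V, VI, IX, X and XI. Of these chains, 8 that had not passed changed sign, and none of the 8 passed under the alternative either. Col2a1 (−0.01) went to 0.02 with upper-quartile scaling and up to 0.10 with 1 library left out. Col6a3 (−0.01) went to 0.02 with upper-quartile scaling and up to 0.04 with 1 library left out. With 1 library left out, the sign changed as well for Col5a1, Col5a3, Col6a2, Col9a2, Col9a3 and Col11a2. It also changed, with 1 library left out, for 5 of the ratios whose groups overlap and for the fibrillar (−0.06) and other (0.03) class sums. Same-numbered libraries deviated with correlations of 0.42, −0.17 and 0.07 over 10458 genes, and not every library correlated best with its own number. The deviations are from a mean of 3 libraries, which ties the correlations to each other. This check therefore cannot decide whether the numbers pair the libraries. With the replicate number as a block, 10 chains fell and 5 rose, and the pathway lists had 19 that fell and 9 that rose. Chains under about 1 CPM, such as Col23a1 in the control libraries, are limited by depth.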
